A study of Rattus norvegicus with 6 samples.

Results

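Long-chain acyl-CoA synthetases (the Acsl genes) and the lysophospholipid acyltransferase Lpcat3 were followed in cultured neonatal rat ventricular cardiomyocytes given perhexiline. The rows named Acsl1, Acsl3, Acsl4, Acsl5, Acsl6 and Lpcat3 were taken by gene name, which gave 6 of the 34257 genes of the table, with 1 row each. The perhexiline group held 3 libraries of cells treated at 1 µM for 24 h, and the vehicle group held 3 libraries of cells given vehicle, whose nature, like the rat strain, the labels do not give. Poly(A) RNA was sequenced. The values are FPKM (fragments scaled to gene length and to a depth factor for each library), which allow levels of different genes to be compared. Whether the replicates came from separate cultures or animals is not in the labels, and the p-values therefore reflect library-to-library spread that may be technical. The series is titled around ferroptosis, an iron-dependent death by lipid peroxidation.

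Acyl-CoA synthetases join a long-chain fatty acid to coenzyme A, the step that commits it to oxidation, storage or insertion into membranes, and the isoforms differ in where they sit and which chains they prefer. ACSL1 is the main isoform of heart and feeds mitochondrial oxidation through carnitine palmitoyltransferase 1, the enzyme that perhexiline inhibits. ACSL4 prefers polyunsaturated chains such as arachidonate, and LPCAT3 places such chains into phospholipids, the membrane lipids whose peroxidation drives ferroptosis.

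Acsl1 led the Acsl family in perhexiline and vehicle cells alike, and the differences of single genes between the groups were small. Lpcat3 rose 1.17-fold and was the only member of the 5 tested that passed the test, a call that 9 of 14 alternative fits did not give, among them all 6 that leave out 1 library. Acsl1, Acsl3, Acsl4 and Acsl5 had means 1.07 to 1.21 times those of vehicle cells and did not pass, and Acsl6 was barely detected. The count of 1 in 5 stands against 6.66% of all 13460 tested genes called at an adjusted p under 0.05 by limma, made up of 3.55% called higher and 3.11% called lower. The share called was 0.815% to 1.09% without perhexiline replicate 2 or 3 or vehicle replicate 1 or 2, 6.47% without perhexiline replicate 1 and 6.75% without vehicle replicate 3. All 5 tested members had a log2 difference above 0, as had 52.9% of tested genes, whose median difference was 0.01. Of the called genes 53.3% were higher, against 42.4% with upper-quartile scaling and 71.0% with total-fragment scaling.

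**Figure D1:**
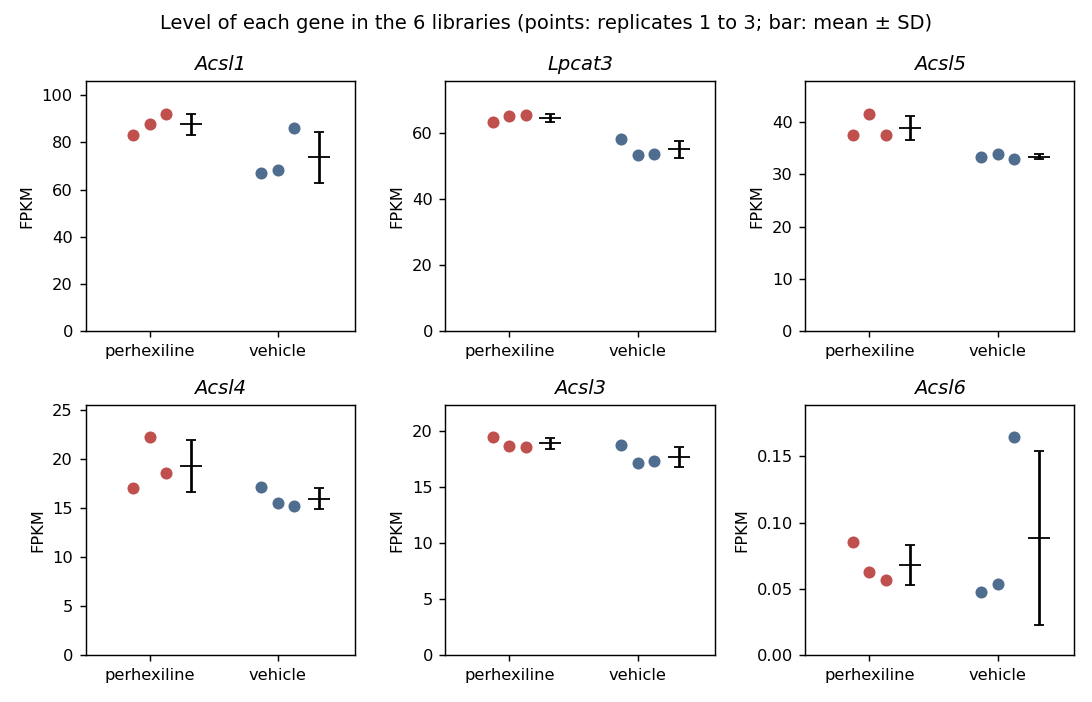
FPKM (vertical axes, each from 0) of the 6 genes in 3 perhexiline and 3 vehicle libraries, with 1 point per library in the order of replicates 1 to 3 and the mean ± SD as a bar. The perhexiline points lie above all vehicle points for Lpcat3 and Acsl5, while the groups overlap for Acsl1, Acsl4, Acsl3 and Acsl6.

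The upstream sequences of 4 members are shown because they are the regions next to the genes whose RNA is compared: those of Lpcat3 and Acsl5, whose groups did not overlap, and those of Acsl1 and Acsl4, the most abundant synthetase and the one tied to ferroptosis. Each runs from 250 bases before to 50 bases after the gene start of RefSeq on the rat build GRCr8, read 5′ to 3′ on the gene's strand, and all 6 members had such an entry. They lie at chr4:159154440-159154739 (plus strand, Lpcat3), chr1:264294601-264294900 (plus, Acsl5), chr16:52532343-52532642 (minus, Acsl1) and chrX:110803212-110803511 (minus, Acsl4). Capitals mark matches on either strand to 3 common promoter motifs. The GC box was searched as GGGCGG. The second motif, named after its own letters, was searched as CCAAT. The TATA box was searched in the strict form TATAAA.
Lpcat3: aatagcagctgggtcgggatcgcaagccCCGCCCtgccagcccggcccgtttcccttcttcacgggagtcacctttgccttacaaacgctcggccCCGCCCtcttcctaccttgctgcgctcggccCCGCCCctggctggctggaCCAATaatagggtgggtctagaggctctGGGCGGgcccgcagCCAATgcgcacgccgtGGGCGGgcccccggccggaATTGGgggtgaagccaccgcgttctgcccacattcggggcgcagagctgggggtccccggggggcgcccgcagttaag
Acsl5: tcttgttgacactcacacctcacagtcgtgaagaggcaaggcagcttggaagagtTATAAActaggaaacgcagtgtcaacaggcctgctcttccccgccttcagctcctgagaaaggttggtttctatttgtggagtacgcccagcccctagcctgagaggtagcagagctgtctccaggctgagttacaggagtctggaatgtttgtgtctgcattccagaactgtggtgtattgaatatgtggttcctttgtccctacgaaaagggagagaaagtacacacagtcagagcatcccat
Acsl1: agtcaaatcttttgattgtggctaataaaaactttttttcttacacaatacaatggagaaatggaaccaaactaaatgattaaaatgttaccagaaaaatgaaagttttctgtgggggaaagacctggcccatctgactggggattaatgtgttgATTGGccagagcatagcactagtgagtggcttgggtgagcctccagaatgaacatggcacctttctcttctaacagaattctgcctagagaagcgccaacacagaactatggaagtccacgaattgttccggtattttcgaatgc
Acsl4: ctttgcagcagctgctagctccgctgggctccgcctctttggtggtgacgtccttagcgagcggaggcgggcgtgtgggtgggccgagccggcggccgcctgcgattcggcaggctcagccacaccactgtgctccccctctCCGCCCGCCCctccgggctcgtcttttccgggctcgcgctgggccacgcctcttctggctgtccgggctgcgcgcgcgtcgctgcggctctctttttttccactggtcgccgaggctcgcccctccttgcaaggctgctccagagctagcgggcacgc
Lpcat3 held 5 GC boxes and 3 CCAAT boxes in 300 bases of 69.7% G and C. At least as many GC boxes occurred in 2.34% of the 33469 rat promoters of the same length, and at least as many CCAAT boxes in 3.02%. These shares were not matched for G and C, whose median over all promoters was 51.67%. Acsl3, whose window is not shown, had 4 GC boxes and 1 CCAAT box at 72.7% G and C. Acsl4 had 2 GC boxes that overlap each other, and Acsl5 had 1 TATA box, 195 bases before its start. The window of Acsl1, with 40.7% G and C, had 1 CCAAT box. Its last 50 bases hold an ATG with no stop codon in frame up to the window's end. That window may therefore lie at a coding exon and not at the promoter of Acsl1. Whether RNA starts at the annotated gene starts in these cells was not tested. Of all promoters, 33.1% held a GC box, 37.5% a CCAAT box and 14.2% a TATA box, and 4, 3 and 1 of the 6 members did. The sterol regulatory element, searched as TCACNCCAC on both strands, was in none of the 6 windows and in 1.12% of all promoters. The half-site AGGTCA, to which receptors such as PPAR and LXR bind, was in none of the 6 and in 16.2% of all promoters. No match lay over one of another motif. These motifs were picked with the expression values known, and a match describes letters and not a bound site.

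Libraries held 14863929 to 16702523 fragments with perhexiline and 13616252 to 15241994 with vehicle, as recovered from the FPKM values. The cells carried the RNAs of their label: the 11 measured of 12 cardiomyocyte markers all passed the filter, with summed levels of 16414 to 19106 FPKM with perhexiline and 18412 to 23113 FPKM with vehicle, and 4 of them (Actn2, Tnni3, Myh6 and Myl2) fell. Fibroblast markers summed to 1408 to 1481 FPKM with perhexiline and 1393 to 1457 FPKM with vehicle, with 2 of 9 higher and 1 lower. Macrophage and other leukocyte markers summed to 53.0 to 80.8 FPKM with perhexiline and 96.3 to 101 FPKM with vehicle, with 2 of 9 tested lower. Smooth muscle and pericyte markers summed to 609 to 802 FPKM with perhexiline and 789 to 1122 FPKM with vehicle, with none of 8 called. Fewer cells of a type and less RNA per cell cannot be told apart in such bulk samples, and the part of these shifts in the members' values was not tested.

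Levels of the 6 genes fell in nearly the same order in every library, with Acsl1 first, then Lpcat3, Acsl5, the pair of Acsl4 and Acsl3, and Acsl6 last. Acsl1 lay above 95.98% of the 22998 genes detected in any library, Lpcat3 above 94.2% and Acsl5 above 89.6%. Acsl3 and Acsl4 lay above 79.8% and 79.1%, and Acsl6 above 16.8%. Acsl4 exceeded Acsl3 in 2 of 3 perhexiline libraries, by under 0.01 FPKM in replicate 3, and in 0 of 3 vehicle libraries. These neighbours in the order therefore overlapped with perhexiline, while with vehicle Acsl3 was above Acsl4 in every library, with a ratio of Acsl4 to Acsl3 of 0.880 to 0.916.

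Acsl1, the synthetase of fatty acid oxidation, has a gene body on the minus strand of chromosome 16, from 48937456 to 49003246 in the table's coordinates, for which no genome build was found in the labels or headers used here. Its level was 83.0, 87.7 and 92.1 FPKM with perhexiline, against 66.8, 68.2 and 86.1 FPKM with vehicle (replicates 1 to 3, as for the genes that follow). The third vehicle library stood with the perhexiline libraries, so the groups overlapped. The means were 87.6 ± 4.55 FPKM with perhexiline and 73.7 ± 10.8 FPKM with vehicle (SD, n = 3 each). The difference was 0.25 ± 0.098 on the log2(FPKM + 1) scale (SE; limma adjusted p = 0.159), with an unadjusted 95% interval of 1.02- to 1.398-fold. Without vehicle replicate 3 the difference was 0.37 and passed (limma adjusted p = 0.0264). Acsl1 RNA is also abundant in fat cells, and 5 of 8 adipocyte markers stayed under 1 FPKM in all 6 libraries, while the 8 summed to 85.9 to 108 FPKM with perhexiline and 80.2 to 108 FPKM with vehicle. Most of that sum was 1 gene, Cidea, a lipid droplet protein, at 83.4 ± 12.1 FPKM with perhexiline and 89.04 ± 16.7 FPKM with vehicle (limma adjusted p = 0.762).

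Acsl5, an isoform of the endoplasmic reticulum and mitochondrial outer membrane best known from intestine and liver, lies on the plus strand of chromosome 1 (276240703 to 276290008). It stood at 37.6, 41.6 and 37.5 FPKM with perhexiline, against 33.4, 33.8 and 32.9 FPKM with vehicle. Every perhexiline library was above every vehicle library, a pattern that 31.9% of tested genes showed in either direction and 17.0% in this one. The means were 38.9 ± 2.36 FPKM with perhexiline and 33.4 ± 0.445 FPKM with vehicle (SD, n = 3 each). The log2 difference was 0.21 ± 0.056 (SE; limma adjusted p = 0.0634), with a 95% interval of 1.06- to 1.27-fold. It passed with total-fragment scaling (limma adjusted p = 0.0392) and among genes with a mean FPKM of at least 5 (limma adjusted p = 0.0490), and missed the threshold in the other 12 alternatives (limma adjusted p 0.0515 to 0.177).

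Acsl4, the isoform that activates arachidonate for membrane phospholipids, lies on the minus strand of chromosome X (113596239 to 113659944). It stood at 17.1, 22.2 and 18.6 FPKM with perhexiline, against 17.2, 15.5 and 15.3 FPKM with vehicle. The groups overlapped, since the first perhexiline library was below the first vehicle library, and the second perhexiline library was the highest of the 6. The means were 19.3 ± 2.65 FPKM with perhexiline and 15.99 ± 1.05 FPKM with vehicle (SD, n = 3 each), and their log2 difference was 0.25 ± 0.099 (SE; limma adjusted p = 0.165). The unadjusted 95% interval was 1.014- to 1.397-fold. Without perhexiline replicate 2 the log2 difference was 0.15 (limma adjusted p = 0.376).

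Acsl3, an isoform of the endoplasmic reticulum and lipid droplets that activates monounsaturated chains, lies on the plus strand of chromosome 9 (84569597 to 84593565). It stood at 19.5, 18.7 and 18.6 FPKM with perhexiline, against 18.8, 17.1 and 17.3 FPKM with vehicle. The groups overlapped at the first vehicle library. The means were 18.9 ± 0.469 FPKM with perhexiline and 17.7 ± 0.896 FPKM with vehicle (SD, n = 3 each), and their log2 difference was 0.09 ± 0.058 (SE; limma adjusted p = 0.374) with a 95% interval of 0.968- to 1.17-fold.

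Acsl6, an isoform best known from brain, lies on the plus strand of chromosome 10 (39655455 to 39719312) and did not pass the filter on low values, so it had no place in the fit. It had 9, 6 and 6 fragments with perhexiline, against 4, 5 and 14 fragments with vehicle. In FPKM these were 0.0854, 0.0627 and 0.0565 with perhexiline, against 0.0477, 0.0537 and 0.164 with vehicle. The third vehicle library alone exceeded all others, and the group means of 0.0682 ± 0.0152 FPKM with perhexiline and 0.0886 ± 0.0657 FPKM with vehicle did not differ beyond their spread (SD, n = 3 each; exact permutation test, two-sided, p = 1). A change in Acsl6 was not detectable at this depth, and with 3 libraries against 3 this permutation test gives no p under 0.1.

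Lpcat3, the acyltransferase that acts after the synthetases, lies on the plus strand of chromosome 4 (157181795 to 157222996). It stood at 63.1, 64.96 and 65.6 FPKM with perhexiline, against 58.1, 53.4 and 53.7 FPKM with vehicle. The groups did not overlap, and the replicates of each lay close together. The means were 64.6 ± 1.26 FPKM with perhexiline and 55.1 ± 2.58 FPKM with vehicle (SD, n = 3 each), and the log2 difference was 0.23 ± 0.050 (SE; limma adjusted p = 0.0422). The 95% interval was 1.08- to 1.27-fold. The rise was small among called genes, since 2.90% of these had a smaller absolute difference and their median was 0.42. Lpcat3 did not pass in any of the 6 fits without 1 library, where limma adjusted p ran from 0.0612 without perhexiline replicate 1 to 0.135 without perhexiline replicate 2. The difference itself stayed between 0.21 and 0.26 in those fits, in which 108 to 894 genes were called over the table, against 896 with all libraries. It also missed the threshold with no filter on low values (limma adjusted p = 0.0748) and with upper-quartile scaling (limma adjusted p = 0.0585). The table places the end of Lpcat3 over 612 bases of Emg1, a ribosomal RNA methyltransferase gene on the opposite strand, and neither the labels nor the headers used here state whether counting used the strand. Emg1 stood at 12.7 to 13.2 FPKM with perhexiline and 12.8 to 13.1 FPKM with vehicle (log2 difference 0.0048, limma adjusted p = 0.966).

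**Figure D2:**
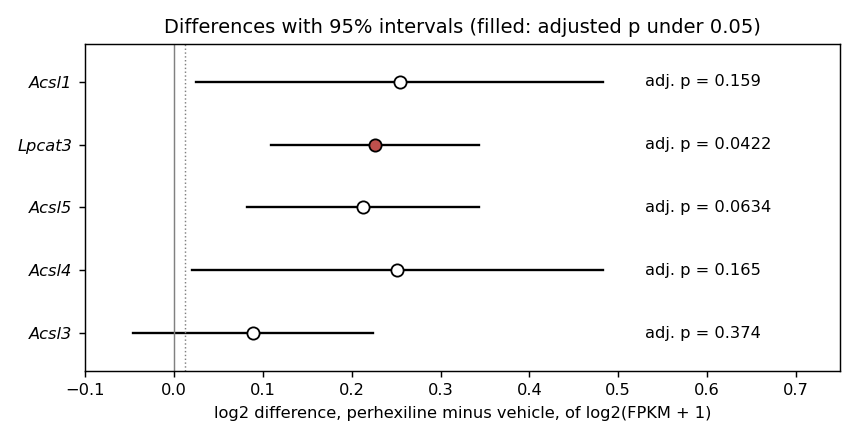
Log2 difference of log2(FPKM + 1), perhexiline minus vehicle (horizontal axis), for the 5 tested genes, with limma's 95% intervals as lines and filled points for an adjusted p under 0.05. The solid line is 0 and the dotted line the median of all tested genes (0.01). Lpcat3 is the only filled point, and the interval of Acsl3 includes 0.

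**Figure D3:**
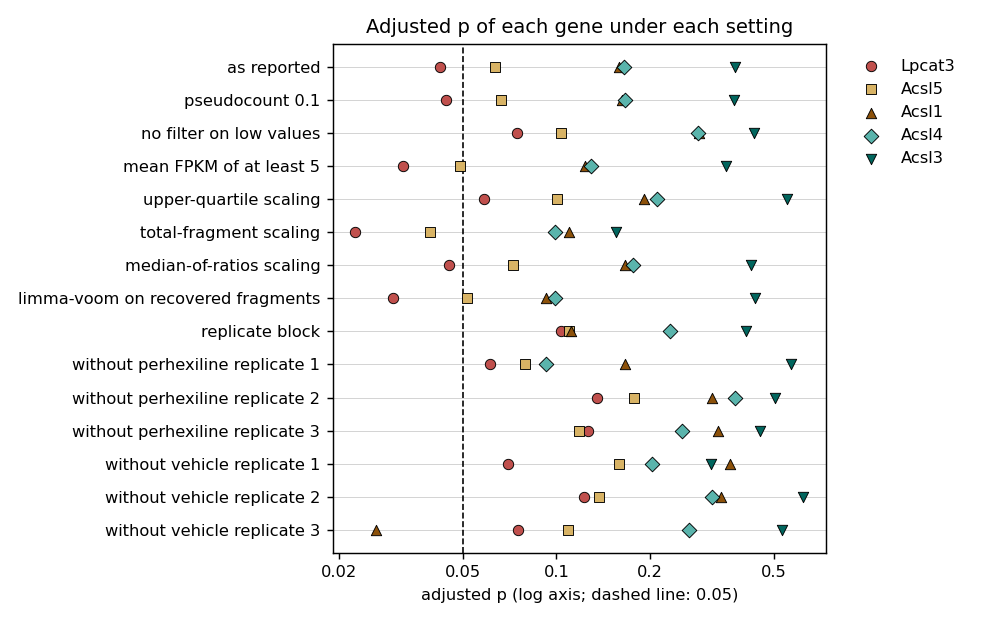
Adjusted p (horizontal log axis, dashed line at 0.05) of the 5 tested genes as reported and under each other setting, 1 row per setting and 1 symbol per gene. Lpcat3 is left of the line in 6 of the 15 rows, Acsl5 in 2, and Acsl1 in 1, that without vehicle replicate 3.

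As a family the 5 Acsl genes summed to 157, 170 and 167 FPKM with perhexiline, against 136, 135 and 152 FPKM with vehicle. The groups did not overlap, with 157 FPKM as the lowest perhexiline sum and 152 FPKM as the highest vehicle sum. Among single tested genes, 17.0% had every perhexiline library above every vehicle library. No test was made of a sum over members, and its largest part was Acsl1, whose own groups overlapped. Acsl1 made up 53.2% ± 1.89 of the sum with perhexiline and 52.1% ± 4.05 with vehicle (SD, n = 3 each). Acsl5 made up 23.6% ± 1.02 with perhexiline and 23.8% ± 1.82 with vehicle. The shares of Acsl4 were 11.7% ± 1.19 with perhexiline and 11.4% ± 1.29 with vehicle, and those of Acsl3 were 11.5% ± 0.760 with perhexiline and 12.6% ± 1.18 with vehicle. Acsl6 made up 0.0416% ± 0.0110 with perhexiline and 0.0610% ± 0.0410 with vehicle.

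**Figure D4:**
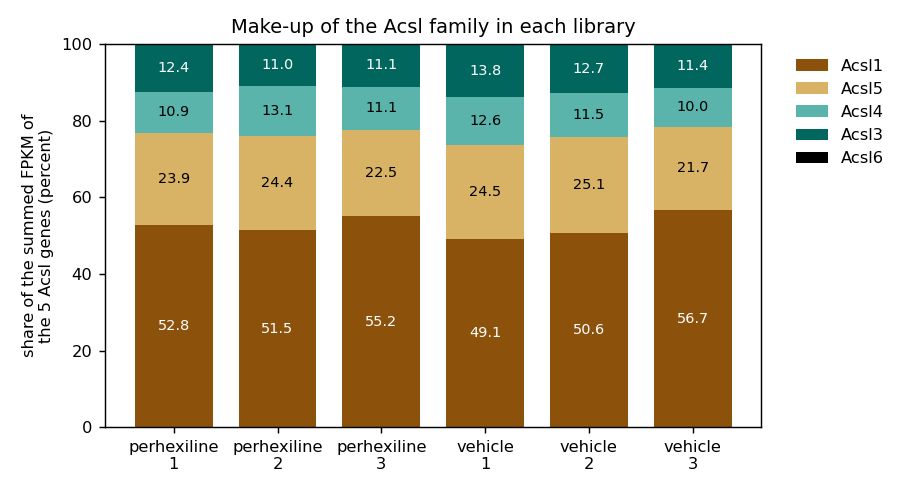
Share of each Acsl gene in the summed FPKM of the 5 genes (vertical axis, percent), 1 stacked bar per library, with shares printed in the bars; Acsl6 is too low to see. Acsl1 holds 51.5% to 55.2% in perhexiline libraries and 49.1% to 56.7% in vehicle libraries.

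Ratios within a library compared the isoform of oxidation with those of membrane lipids. The ratio of Acsl4 to Acsl1 was 0.220 ± 0.0288 with perhexiline and 0.221 ± 0.0405 with vehicle (SD, n = 3 each; exact permutation test of log2 ratios, two-sided, p = 1, adjusted p = 1). Acsl3 to Acsl1 stood at 0.217 ± 0.0165 with perhexiline and 0.244 ± 0.0402 with vehicle (exact permutation p = 0.4, adjusted over the 3 ratios 0.6). Acsl4 to Acsl3 stood at 1.02 ± 0.157 with perhexiline and 0.901 ± 0.0186 with vehicle (exact permutation p = 0.4, adjusted 0.6). With 3 libraries against 3 the smallest p this test allows is 0.1, so no ratio could have passed 0.05. The differences of log2 ratios moved with single libraries. That of Acsl4 to Acsl3 was 0.17, against 0.06 without perhexiline replicate 2 and 0.28 without perhexiline replicate 1, and that of Acsl3 to Acsl1 was -0.16, against -0.06 without vehicle replicate 1 and -0.30 without vehicle replicate 3.

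Other genes of the pathway were read from 8 lists. The other acyl-CoA synthetases had none of 8 tested genes called and a median log2 difference of 0.10. The most abundant were Acss2, a cytosolic acetyl-CoA synthetase, at 42.8 ± 1.63 FPKM with perhexiline and 39.9 ± 3.61 FPKM with vehicle (limma adjusted p = 0.399), and Slc27a4, a fatty acid transport protein, at 26.2 ± 1.21 FPKM with perhexiline and 22.7 ± 0.50 FPKM with vehicle (limma adjusted p = 0.0732). Slc27a4 passed with total-fragment scaling (limma adjusted p = 0.0459). Among 15 other acyltransferases of lysophospholipids and glycerophosphate, 1 rose and none fell (median -0.02). This was Gpat4, which starts glycerolipid synthesis in the endoplasmic reticulum, at 39.3, 41.1 and 39.3 FPKM with perhexiline, against 34.2, 34.8 and 34.3 FPKM with vehicle (1.16-fold; limma adjusted p = 0.0400). Its groups did not overlap, yet leaving out any 1 library ended the call (limma adjusted p 0.0642 to 0.138).

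Phospholipases A2 release the lysophospholipids on which LPCAT3 acts. Their list, which also held lysophospholipases and other lipases, had the largest differences of these lists. Of 19 tested, 2 rose and 1 fell (median 0.04). Pla2g2a, a secreted phospholipase of inflammation, stood at 79.3, 110 and 107 FPKM with perhexiline, against 35.0, 45.5 and 17.6 FPKM with vehicle, a 3.03-fold rise (limma adjusted p = 0.0293). Lypla2, a lysophospholipase and protein depalmitoylase, rose 1.25-fold to 32.8 ± 1.18 FPKM with perhexiline, against 26.2 ± 1.95 FPKM with vehicle (limma adjusted p = 0.0368). Pla2g5, another secreted phospholipase, fell to 25.2 ± 2.89 FPKM with perhexiline, against 36.6 ± 4.55 FPKM with vehicle (limma adjusted p = 0.0379). The perhexiline libraries lay above all vehicle libraries for Pla2g2a and Lypla2, and below them for Pla2g5. Pla2g2a passed in 3 of the 6 fits without 1 library, Pla2g5 in 2 and Lypla2 in 1, with limma adjusted p up to 0.0999, 0.120 and 0.120.

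Acyl-CoA thioesterases, which undo the synthetase reaction, had none of 9 tested genes called (median 0.0055). The most abundant were Acot13 at 34.04 ± 4.45 FPKM with perhexiline and 38.1 ± 1.43 FPKM with vehicle (limma adjusted p = 0.301) and Acot9 at 22.1 ± 0.986 FPKM with perhexiline and 21.9 ± 2.44 FPKM with vehicle (limma adjusted p = 0.920). Them4, another thioesterase, named after its values were seen, was nearest to the threshold, at 13.04, 13.9 and 11.99 FPKM with perhexiline, against 15.5, 17.0 and 15.8 FPKM with vehicle (limma adjusted p = 0.0569). Its groups did not overlap, and it passed as lower with limma-voom (limma adjusted p = 0.0244) and among genes averaging at least 5 FPKM (limma adjusted p = 0.0398). Of 11 tested genes of fatty acid uptake and acyl-CoA binding, 1 rose and 1 fell (median -0.0099). Cd36, also on that list, matched no gene name in the data and is not counted. Fabp5, a cytosolic fatty acid carrier, stood at 149, 163 and 143 FPKM with perhexiline, against 101, 104 and 98.5 FPKM with vehicle (1.499-fold; limma adjusted p = 0.00805), and passed in all 6 fits without 1 library. Cav1, the caveolar coat protein, fell to 23.7 ± 2.28 FPKM with perhexiline, against 33.6 ± 0.929 FPKM with vehicle (limma adjusted p = 0.0185), and passed in 2 of those 6 fits (limma adjusted p up to 0.0641).

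Polyunsaturated lipid peroxidation acts on the products of ACSL4 and LPCAT3, and the genes listed for it do not all act in the same direction. Of these, Gpx4 did not pass the filter on low values, at 0.197 ± 0.151 FPKM with perhexiline and 0.254 ± 0.215 FPKM with vehicle. The annotation and counter behind that row are not known here. Whether so low a value is the cells' level of Gpx4 RNA was not tested. The 11 tested had 1 rise and no fall (median 0.04). The rise was that of Por, an electron donor to cytochromes P450 that promotes lipid peroxidation in human cells, at 70.8, 81.9 and 76.8 FPKM with perhexiline, against 63.4, 60.4 and 62.4 FPKM with vehicle (1.23-fold; limma adjusted p = 0.0358). Among 13 lipid-sensing nuclear receptors, sterol regulatory factors and Hippo effectors, 1 fell and none rose (median 0.08). Ppargc1a, the coactivator of mitochondrial biogenesis, fell to 24.7 ± 1.52 FPKM with perhexiline, against 30.5 ± 1.11 FPKM with vehicle (limma adjusted p = 0.0365). Lpcat3 is a target of the liver X receptors (LXR), and of 8 other LXR targets 1 fell and none rose (median -0.01). That was Smpdl3a, a phosphodiesterase known as an LXR target from human cells, at 13.2 ± 2.46 FPKM with perhexiline and 20.2 ± 0.543 FPKM with vehicle (limma adjusted p = 0.0337). The LXR genes, Nr1h2 and Nr1h3, named after their values were seen, were higher in all perhexiline libraries than in all vehicle libraries. Neither passed (limma adjusted p = 0.0867 and 0.177). Nr1h3 and Srebf1 are on both the receptor list and the LXR target list. Without 1 library, Por passed in 1 of 6 fits, Smpdl3a in 1 and Ppargc1a in none, with limma adjusted p up to 0.108, 0.10 and 0.121.

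**Figure D5:**
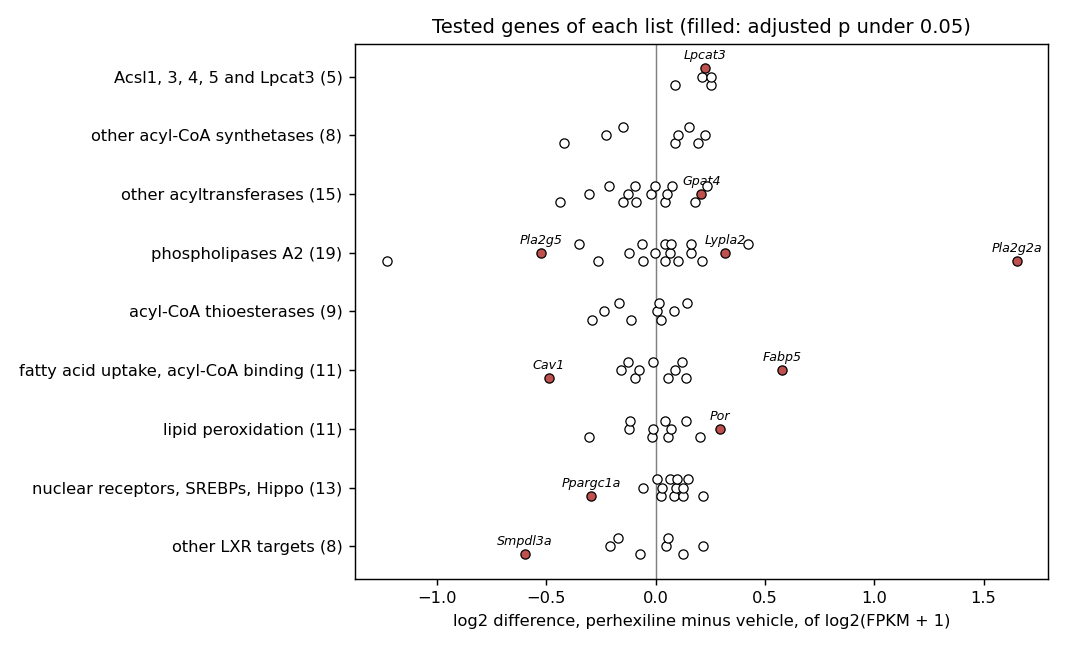
Log2 difference of log2(FPKM + 1), perhexiline minus vehicle (horizontal axis), 1 point per tested gene, in the member genes (top row) and the 8 pathway lists, with the number of tested genes in brackets and filled, named points for an adjusted p under 0.05. Pla2g2a lies farthest right, at 1.65, and most points of each list lie within 0.5 of 0.

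The genes whose profile over the 6 libraries lay nearest to that of each member were found by the root mean square difference of log2(FPKM + 1), centred on vehicle means, among the 8525 other tested genes with a mean FPKM of at least 5 and a gene symbol that is no placeholder. For Lpcat3 they were Spry4 (0.0191), Jpt2 (0.0246) and Pkd2 (0.0296), where the median of all candidates was 0.177. For Acsl5 they were Rangap1 (0.0169), Sssca1 (0.0214) and Usp3 (0.0248), with a median of 0.171. For Acsl4 they were C1galt1 (0.0406), Noa1 (0.0408) and Jak2 (0.0474), with a median of 0.220, and for Acsl1 they were Rgs19 (0.0369), Wrnip1 (0.0386) and Ctdp1 (0.0422), with a median of 0.224. For Acsl3 they were Ubqln2 (0.0169), Nupl2 (0.0198) and Rer1 (0.0237), with a median of 0.13. No other member was among these nearest genes.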

How the data were processed

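The deposited table gives FPKM per gene, 1 column per library, per the file headers, with gene length and coordinates. The tools named were HISAT2 2.0.5 and, with no version, DESeq2, per the submitters' processing notes. Neither their roles nor the genome build, annotation and counter are stated in the sources used here. Libraries were made with dUTP-marked second strands, per the labels' protocols. A test for counts was not used as the main result, since FPKM was deposited by the authors. Multiplied by gene length, FPKM fell on multiples of a step that is fixed within a library for 100% of positive values (within 0.01). These multiples were taken as fragments. The step did not follow their total alone. It was 0.0727 FPKM for 1 kb in vehicle replicate 1, with 13866500 fragments, and 0.0715 FPKM in vehicle replicate 3, with 13616252. FPKM summed to 467519 to 485106 with perhexiline and 491312 to 509345 with vehicle. With total-fragment scaling the median log2 difference of tested genes was 0.06, against 0.01 as reported.

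The 13460 genes that reached 1 FPKM in 3 or more libraries were fitted on the log2(FPKM + 1) scale by limma 3.58.1 under R 4.3.3 (mean-variance trend, two-sided, group as the only term), and p-values were adjusted by Benjamini-Hochberg over all of them. Folds are ratios of mean FPKM, and log2 differences on this scale understate changes of low genes. The fit was also run on simulated data with the same dispersion for every gene. How often differences as small as those of the members were called there is not given here. Samples were grouped by their titles. Replicates were different libraries, whose fragments differed between pairs by a chi-square of 4.44 to 7.63 for each degree of freedom.

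Members, lists, named genes and tests were chosen with earlier results of these data known. Of 8 pathway lists, up to 6 called genes were named, or the 2 most abundant where none was called. Of 129 different symbols in them 123 matched the table. Upstream sequences are from RefSeq (GRCr8). Alternatives were another pseudocount, other filters and scalings, limma-voom, the replicate number as a block and each library left out.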

Additional observations from a re-analysis of the deposited data

How the results depend on the processing

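All 5 tested members kept a difference above 0 under every alternative run. Lpcat3 missed the threshold with no filter on low values (log2 difference 0.23, limma adjusted p = 0.0748) and with upper-quartile scaling (0.20, 0.0585). It passed with a pseudocount of 0.1, in genes averaging at least 5 FPKM, total-fragment or median-of-ratios scaling and limma-voom. Without 1 library its difference ran from 0.21 to 0.26, with no pass. Acsl5 passed among genes averaging at least 5 FPKM (0.21) and total-fragment scaling (0.27), and ran from 0.16 to 0.24 without 1 library. Acsl1 ran from 0.19 to 0.37, Acsl4 from 0.15 to 0.33, Acsl3 from 0.07 to 0.13 and Acsl6, which had no place in the fit, from -0.05 to 0.02. Acsl6 was at -0.12 with a pseudocount of 0.1. The number of members called was 0 with no filter, 0 with upper-quartile scaling, 2 among genes averaging at least 5 FPKM, 2 with total-fragment scaling and 0 to 1 without 1 library. Of all tested genes, 162 were called with no filter, 1570 with limma-voom and 108 to 894 without 1 library, the lowest without perhexiline replicate 3. The perhexiline minus vehicle difference in the log2 ratio of Acsl4 to Acsl1 was 0.0081 without a pseudocount. That difference was -0.0027 with a pseudocount of 1 and ran from -0.14 to 0.13 without 1 library. Acot9, at 0.02, was -0.0095 with upper-quartile scaling and -0.051 to 0.099 without 1 library. The causes were not tested.

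Samples with the same replicate number did not deviate together (correlations of -0.10 to -0.02). Whether they share a culture or preparation is not in the labels, and such correlations cannot decide it. With the replicate number as a block, 173 genes and 0 members were called, and Lpcat3 was at 0.23 (limma adjusted p = 0.104). Depth limits Acsl6 alone among the members, with 4 to 14 fragments per library. The other 5 had at least 672.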

Other observations

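Pnpla2, which encodes the adipose triglyceride lipase that frees fatty acids from lipid droplets, had the largest difference of the phospholipase list after Pla2g2a and did not pass. It stood at 4.35, 5.65 and 0.614 FPKM with perhexiline, against 16.7, 3.003 and 9.44 FPKM with vehicle (log2 difference -1.23 ± 0.66, SE; limma adjusted p = 0.281). Libraries of both groups were spread widely and overlapped. It was named after its values were seen.

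Of 90 tested genes of the 8 pathway lists, each counted once, 32 (35.6%) had groups that did not overlap, against 31.9% of all tested genes. Of these 32, 9 were called and 23 missed the threshold, 13 of them higher and 10 lower with perhexiline. Examples, named after their values were seen, follow. Slc27a1, a fatty acid transport protein of muscle, stood at 18.2, 16.8 and 18.7 FPKM with perhexiline, against 15.6, 15.4 and 14.3 FPKM with vehicle (limma adjusted p = 0.0786). Fads2, the desaturase that starts the synthesis of long polyunsaturated chains, stood at 68.0, 74.8 and 68.2 FPKM with perhexiline, against 65.9, 57.3 and 59.7 FPKM with vehicle (limma adjusted p = 0.109). Pla2g4b, a cytosolic phospholipase, was lower in all perhexiline libraries, at 16.6, 13.7 and 15.8 FPKM, than in vehicle libraries, at 19.5, 21.7 and 18.2 FPKM (limma adjusted p = 0.0623).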
